A study of Homo sapiens with 3 samples.

Results

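The genes described here are 36 genes of cholesterol and fatty acid synthesis that are known targets or regulators of the sterol regulatory element-binding proteins (SREBPs). They were chosen by name: each row of the deposited count table whose Ensembl gene identifier maps to 1 of the 36 symbols was taken. All 36 were found among 58735 genes. The list was drawn up with earlier results of these data known, so its shares beside those of all genes are descriptive only. For comparison they were divided into a cholesterol arm of 20 genes (the enzymes from acetoacetyl-CoA to cholesterol and the sterol carrier STARD4), a fatty acid arm of 12 genes (acetyl-CoA supply, synthesis, desaturation, elongation and the first steps toward glycerolipids) and 4 regulators (INSIG1, SREBF2, SCAP and SREBF1). RNA was sequenced from HaCaT cells, a human skin keratinocyte line that grows indefinitely in culture, labelled wild type. The CB library came from cells given carbon black at 25 µg/mL, the S1650b library from cells given the particulate sample S1650b at 50 µg/mL, and the Control library from cells with no particle, each labelled 24 h. The labels describe particle exposure in medium without serum after growth in medium with serum, and give no separate medium for the Control cells, so whether all 3 cultures were without serum is unknown here.

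SREBPs are membrane-bound precursors of transcription factors. When sterols are scarce, the escort protein SCAP carries them from the endoplasmic reticulum to the Golgi, where proteases release the active factor, and when sterols are plentiful INSIG proteins retain the SCAP-SREBP complex. SREBF2 encodes SREBP2, which acts mainly on cholesterol synthesis, and SREBF1 encodes SREBP1, which acts mainly on fatty acid synthesis. The factors bind sterol regulatory elements (SREs), often together with NF-Y, which binds CCAAT boxes. In the epidermis, keratinocytes make cholesterol and fatty acids for the lipids of the permeability barrier.

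Promoter sequence was available for 32 of the 36 genes in the RefSeq table on GRCh38.p14 (46 windows of 300 bases, from 250 bases before to 50 bases after each annotated start), with no entry for ACAT2, FASN, FDFT1 and SQLE. A CCAAT box, searched as CCAAT on both strands, was found in 25 of the 32 genes (78.1%) and in 29 of the 46 windows (63.0%), against 39.7% of all 27305 genes and 34.6% of all 35116 windows. The SRE letters were taken from the SREBF2 window itself (ATCACCCCAC), so their presence there is no finding. They were found in no other of the 32 genes and in 16 of all windows. The shorter letters CACNCCAC, which overlap the SRE, were found in 6 of the 32 genes (18.8%, against 7.05% of all genes). Of these 6, SREBF2 matched inside the SRE, so that match is no finding either. The E-box letters CACGTG were found in 5 of the 32 (15.6%, against 8.78%). A match describes the letters only and is not a measured binding site. The 250 bases before the start are shown for 5 genes, 5′ to 3′ on the strand of the gene, with matches to these motifs in capitals. SREBF2 (chr22:41832855-41833104, plus strand) is shown because it held the SRE, with a CCAAT box on the opposite strand (ATTGG) after it.
SREBF2: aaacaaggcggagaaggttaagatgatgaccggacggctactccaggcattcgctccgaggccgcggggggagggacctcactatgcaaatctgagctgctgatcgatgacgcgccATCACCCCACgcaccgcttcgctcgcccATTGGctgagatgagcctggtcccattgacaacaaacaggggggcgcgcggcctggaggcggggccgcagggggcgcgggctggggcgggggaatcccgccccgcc
INSIG1 (chr7:155297628-155297877, plus strand) held a short SRE, a CCAAT box and an E-box.
INSIG1: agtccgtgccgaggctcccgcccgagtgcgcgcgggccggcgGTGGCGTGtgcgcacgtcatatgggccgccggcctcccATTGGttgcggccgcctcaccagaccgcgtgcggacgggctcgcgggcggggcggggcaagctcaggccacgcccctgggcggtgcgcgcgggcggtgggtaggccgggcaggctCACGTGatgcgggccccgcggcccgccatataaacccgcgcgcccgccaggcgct
HMGCS1 (chr5:43313413-43313662, minus strand) had the largest fold of the 36 genes in the CB library and held a pair of CCAAT boxes in the window shown, while its other annotated window held none of the motifs.
HMGCS1: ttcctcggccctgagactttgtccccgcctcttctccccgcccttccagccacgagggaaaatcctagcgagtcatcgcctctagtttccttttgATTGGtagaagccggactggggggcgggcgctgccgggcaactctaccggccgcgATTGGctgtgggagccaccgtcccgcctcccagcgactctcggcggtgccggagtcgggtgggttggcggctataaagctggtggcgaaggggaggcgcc
MSMO1 (chr4:165327419-165327668, plus strand) held 4 CCAAT boxes.
MSMO1: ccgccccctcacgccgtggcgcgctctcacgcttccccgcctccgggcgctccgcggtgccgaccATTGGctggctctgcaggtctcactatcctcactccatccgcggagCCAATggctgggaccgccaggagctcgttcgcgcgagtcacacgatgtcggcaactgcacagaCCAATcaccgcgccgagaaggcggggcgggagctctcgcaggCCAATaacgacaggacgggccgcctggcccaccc
SCD (chr10:100346983-100347232, plus strand) was the most abundant of the 36 transcripts per length and held CCAAT boxes and a short SRE.
SCD: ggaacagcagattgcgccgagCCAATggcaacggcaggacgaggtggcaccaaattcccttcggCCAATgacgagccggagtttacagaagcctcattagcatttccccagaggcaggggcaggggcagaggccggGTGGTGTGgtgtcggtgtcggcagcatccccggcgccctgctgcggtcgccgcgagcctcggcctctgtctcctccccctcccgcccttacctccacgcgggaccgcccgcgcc

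The libraries held 20946139 (CB), 20417744 (S1650b) and 20658247 (Control) counts, and 23005, 25475 and 23790 genes were detected in them. Each group was 1 library, so no difference below has a replicate check and no p-value is given. Levels are CPM (counts scaled to a common library size) corrected by TMM factors of 0.957 (CB), 1.09 (S1650b) and 0.956 (Control), and folds are ratios of scaled CPM. The range in parentheses after a fold is its exact 95% interval, which covers counting error only. A gene is called higher or lower here when its fold was at least 1.5 and its interval lay on that side of 1. All 36 genes were among the 14619 genes with at least 1 scaled CPM in at least 1 library. The S1650b library depended more on the scaling than the CB library did. The median log2 fold of all genes, S1650b against Control, was −0.04 with TMM, 0.15 with scaling by total counts and −0.17 with the upper quartile, and higher genes made up 53.6%, 70.9% and 41.9% of the calls. In bulk RNA, fewer cells of a kind and less RNA per cell cannot be told apart.

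Per transcript length, SCD, the desaturase that makes monounsaturated fatty acids, stood far above the other members, at 1116 FPKM in the CB library, 1375 in the S1650b library and 992 in the Control library. Its FPKM rank among all genes was 31, 16 and 40. FASN, the fatty acid synthase, followed at 277, 168 and 168 FPKM. The lowest member was GPAM in the CB and Control libraries, at 1.04 and 0.767 FPKM (2.62 in the S1650b library), and FADS2 in the S1650b library, at 0.483 FPKM (1.14 and 0.888 in the CB and Control libraries). In the cholesterol arm, DHCR7, a reductase of the final steps, was highest in all 3 libraries, at 139, 85.3 and 96.6 FPKM. The highest library of a gene was CB for 14 genes of the cholesterol arm and 7 of the fatty acid arm, S1650b for 5 of each arm and INSIG1, and Control for TM7SF2, SREBF2, SCAP and SREBF1. The lowest library was Control for 21 of the 36 genes, S1650b for 12 and CB for 3.

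**Figure D1:**
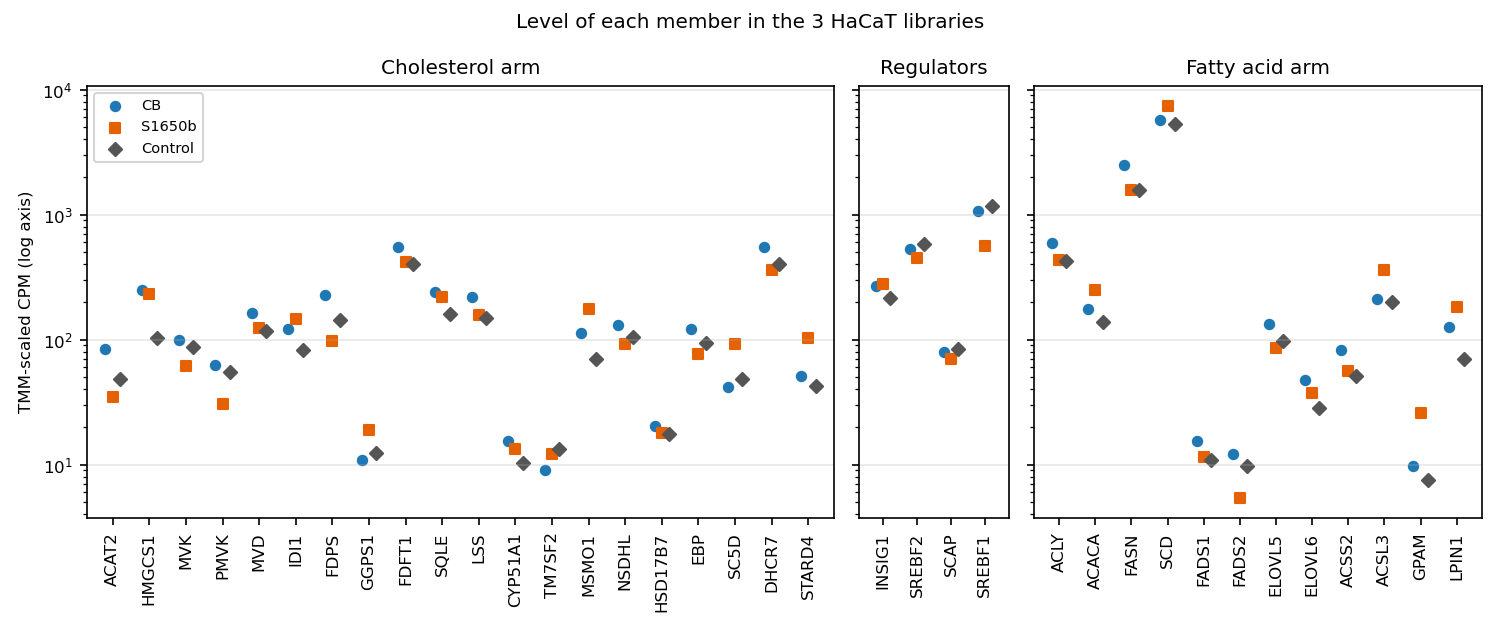
Scaled CPM (log axis) of the 36 genes in the CB, S1650b and Control libraries, 1 point per library. Points are to be compared within a gene. SCD lies above the other genes in all 3 libraries, and SREBF1 lies lowest in the S1650b library.

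In the CB library, the genes of both arms were mostly higher than in the Control library by less than 1.5-fold, and a minority passed the rule. In the cholesterol arm 6 of 20 genes were called higher and 0 lower, where 4.86% of all 14619 genes were called higher and 10.5% lower. The median log2 fold of the arm was 0.45, against 0.00 for all genes, and the counting interval lay above 1 for 17 of the 20. Over all 14619 genes, the interval lay above 1 for 4054 and below 1 for 3782. In the fatty acid arm 4 of 12 genes were called higher and 0 lower, the median log2 fold was 0.48 and the interval lay above 1 for all 12. The 2 arms therefore had close medians and close shares of called genes in the CB library. None of the 4 regulators was called.

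HMGCS1 and ACAT2, at the first steps of the cholesterol arm, had its largest folds in the CB library. HMGCS1 (ENSG00000112972, chromosome 5, 43289395 to 43313512, GRCh38), the cytosolic HMG-CoA synthase, had 251 CPM in the CB library, 232 in the S1650b library and 104 in the Control library. It was 2.42-fold higher (2.30 to 2.55) in the CB library, the largest fold of the 36 genes. ACAT2 (ENSG00000120437, chromosome 6, 159760328 to 159779055), the cytosolic thiolase that makes acetoacetyl-CoA, had 84.3 CPM in the CB library, 34.6 in the S1650b library and 48.4 in the Control library. It was 1.74-fold higher (1.61 to 1.89) with CB, and S1650b was the lowest of the 3. FDPS, which makes farnesyl diphosphate, had 229 CPM in the CB library, 96.7 in the S1650b library and 143 in the Control library. It was 1.60-fold higher (1.53 to 1.68) with CB, and again the S1650b library was lowest.

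Further along the pathway, SQLE, the squalene epoxidase, had 239.6 CPM in the CB library, 219 in the S1650b library and 159.6 in the Control library, and CYP51A1, the lanosterol demethylase, had 15.6 CPM in the CB library, 13.4 in the S1650b library and 10.2 in the Control library. Both lay just inside the rule with CB, SQLE at 1.501-fold higher (1.43 to 1.57) and CYP51A1 at 1.52-fold higher (1.27 to 1.83), while IDI1 at 1.48 (1.39 to 1.57) and LSS at 1.49 (1.42 to 1.56) lay just outside it. MSMO1 (ENSG00000052802, chromosome 4, 165327623 to 165343160), the sterol methyl oxidase, had 114 CPM in the CB library, 176 in the S1650b library and 70.3 in the Control library. It was 1.62-fold higher (1.51 to 1.73) with CB, with the Control library lowest and the S1650b library highest. The interval lay below 1 for SC5D at 0.866 (0.788 to 0.951) and for TM7SF2, a sterol reductase, at 0.677 (0.557 to 0.821). TM7SF2 had 180 counts in the CB library, 273 in the S1650b library and 262 in the Control library, so its fold rests on fewer reads than most. The remaining 10 genes of the arm had folds between 0.873 (GGPS1) and 1.40 (MVD).

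In the fatty acid arm, LPIN1 (ENSG00000134324, chromosome 2, 11677595 to 11827409), a phosphatidate phosphatase of glycerolipid synthesis, had 126 CPM in the CB library, 181 in the S1650b library and 69.6 in the Control library. It was 1.80-fold higher (1.69 to 1.93) with CB, the largest fold of the arm. ELOVL6, which elongates palmitate, had 47.8 CPM in the CB library, 37.6 in the S1650b library and 28.6 in the Control library, and was 1.67-fold higher (1.51 to 1.86) with CB. ACSS2, which makes acetyl-CoA from acetate, had 81.9 CPM in the CB library, 56.3 in the S1650b library and 51.3 in the Control library. It was 1.60-fold higher (1.47 to 1.73) with CB and close to the Control level with S1650b. FASN (ENSG00000169710, chromosome 17, 82078333 to 82098332) had 2494 CPM in the CB library, 1585 in the S1650b library and 1574 in the Control library, and was 1.58-fold higher (1.56 to 1.61) with CB. The other 8 genes of the arm ranged between 1.06 (ACSL3) and 1.43 (FADS1). SCD, at 1.08 (1.07 to 1.09), was close to the Control level with CB, and its share of the counts of the arm was 59.6% in the CB library and 67.2% in the Control library, while that of FASN was 25.8% and 19.8%.

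**Figure D2:**
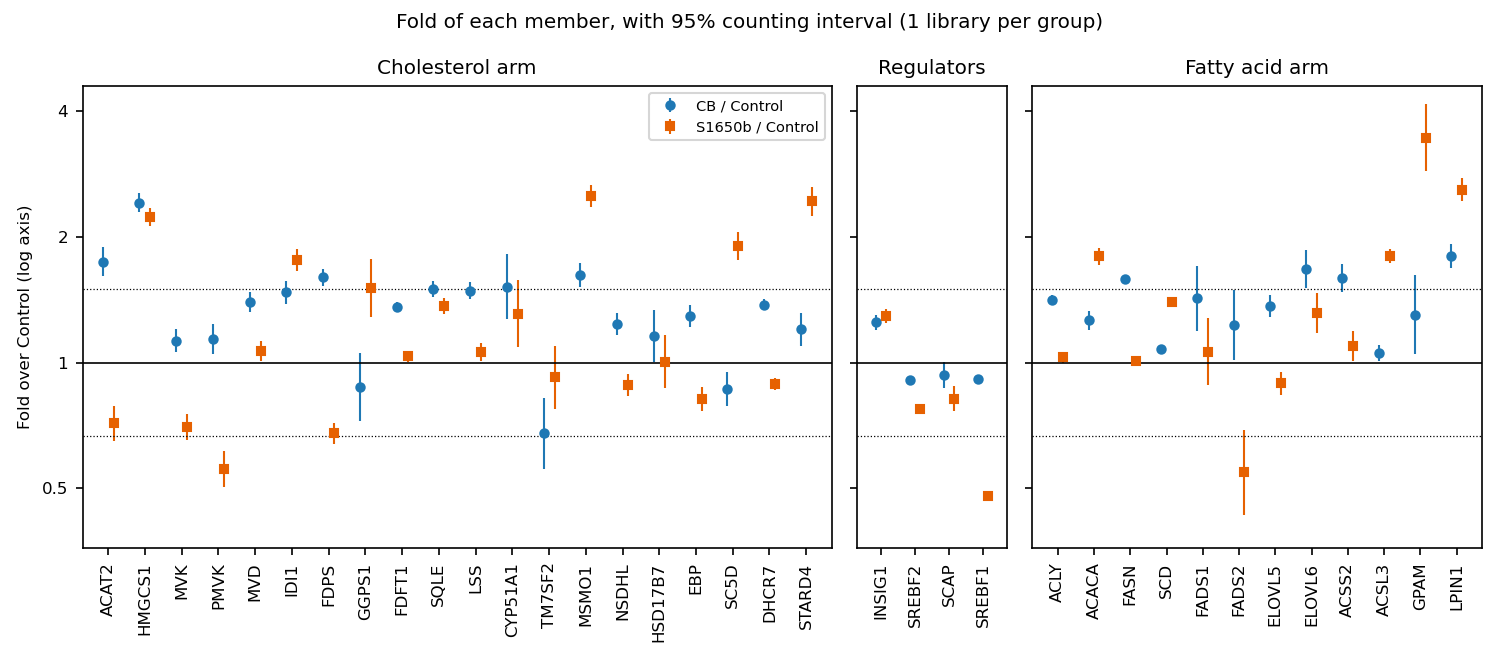
Fold of each of the 36 genes over the Control library on a log axis, CB (circles) and S1650b (squares), with 95% counting intervals and dotted lines at 1.5-fold higher and lower. The CB folds of the fatty acid arm all lie above 1, and the S1650b folds spread from 0.479 (SREBF1) to 3.45 (GPAM).

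In the S1650b library each arm held genes called higher and genes called lower. In the cholesterol arm 6 of 20 genes were called higher and 1 lower, where 22.1% of all genes were called higher and 19.2% lower. The share called higher, 30.0%, was the same as with CB but lay much nearer to the share of all genes. The median log2 fold of the arm was 0.07 (−0.056 with upper-quartile scaling), against −0.04 for all genes, and the interval lay above 1 for 11 genes and below 1 for 7. Over all 14619 genes, the interval lay above 1 for 4989 and below 1 for 5724. In the fatty acid arm 4 of 12 genes were called higher and 1 lower, with a median log2 fold of 0.26 and intervals above 1 for 8 genes and below 1 for 2. The 8 keratinocyte markers summed to 6577 CPM in this library, against 14450 in the Control library, a difference carried mainly by KRT5 and KRT14. Not all 8 were lower, and their part in these folds was not tested. The CB and S1650b comparisons share the 1 Control library, so their values are given side by side and no likeness is drawn from them.

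The called genes of the cholesterol arm lay at several steps. HMGCS1 was 2.23-fold higher (2.12 to 2.35) with S1650b, beside 2.42 with CB, and MSMO1 was 2.51-fold higher (2.36 to 2.67), beside 1.62 with CB. STARD4 (ENSG00000164211, chromosome 5, 111496033 to 111512590), which carries sterol between membranes, had 50.9 CPM in the CB library, 103 in the S1650b library and 42.4 in the Control library. It was 2.43-fold higher (2.25 to 2.64) with S1650b, and the CB library lay near the Control library. SC5D, a sterol desaturase late in the pathway, had 41.9 CPM in the CB library, 92.0 in the S1650b library and 48.4 in the Control library, and was 1.90-fold higher (1.76 to 2.05) with S1650b. IDI1, the isomerase of isopentenyl diphosphate, had 121 CPM in the CB library, 145 in the S1650b library and 82.3 in the Control library, and was 1.76-fold higher (1.66 to 1.87). GGPS1, which makes geranylgeranyl diphosphate, had 10.9 CPM in the CB library, 18.8 in the S1650b library and 12.5 in the Control library. At 1.51-fold higher (1.29 to 1.78) it lay just inside the rule, and it was outside it with upper-quartile scaling, with the deposited FPKM, with 5 counts added and with edgeR's default TMM reference library.

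PMVK, the phosphomevalonate kinase, had 62.3 CPM in the CB library, 30.5 in the S1650b library and 54.8 in the Control library. At 1.80-fold lower (1.63 to 1.98) it was the 1 gene of the cholesterol arm called lower with S1650b. Its neighbour in the pathway MVK had 98.7 CPM in the CB library, 61.2 in the S1650b library and 87.3 in the Control library, and its S1650b fold was 0.701 (0.653 to 0.753). ACAT2 at 0.716 (0.650 to 0.788) and FDPS at 0.677 (0.640 to 0.717) were on the same side of 1 without passing the rule, and these 3 were called lower with upper-quartile scaling. EBP, the sterol isomerase, had 122 CPM in the CB library, 76.9 in the S1650b library and 93.9 in the Control library, and DHCR7 had 556 CPM in the CB library, 358 in the S1650b library and 403 in the Control library, with S1650b folds of 0.819 (0.767 to 0.876) and 0.889 (0.862 to 0.917). In the 8 genes from ACAT2 to GGPS1 the median log2 fold was −0.20 with S1650b and 0.52 with CB, and in the 8 from CYP51A1 to DHCR7 it was −0.055 with S1650b and 0.34 with CB.

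In the fatty acid arm, the 3 genes of fatty acid activation and glycerolipid synthesis were all called higher with S1650b. GPAM (ENSG00000119927, chromosome 10, 112149864 to 112215377), which acylates glycerol phosphate at the mitochondrion, had 9.83 CPM in the CB library, 26.0 in the S1650b library and 7.54 in the Control library. It was 3.45-fold higher (2.87 to 4.15) with S1650b, the largest fold of the 36 genes, from 580 counts in the S1650b library against 149 in the Control library. LPIN1 was 2.60-fold higher (2.44 to 2.76) with S1650b, beside 1.80 with CB. ACSL3, a long-chain acyl-CoA synthetase, had 212 CPM in the CB library, 364 in the S1650b library and 201 in the Control library, and was 1.80-fold higher (1.74 to 1.88) with S1650b. These 3 genes had a median log2 fold of 1.38 with S1650b and 0.38 with CB, against −0.04 and 0.00 for all genes. Of all genes, 22.1% were called higher with S1650b. The GC content was 41.0% for GPAM, 47.5% for LPIN1 and 38.1% for ACSL3, each below the median of all genes (48.6%). Their exon lengths were 9808, 11861 and 7240 bases, each above the median of 4584. Their folds with the length and GC trends removed are given below.

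ACACA, the acetyl-CoA carboxylase that opens fatty acid synthesis, had 175 CPM in the CB library, 249 in the S1650b library and 138 in the Control library, and was 1.80-fold higher (1.72 to 1.88) with S1650b. FASN, the next enzyme, was at 1.01 (0.992 to 1.02), level with the Control library. FADS2, a desaturase of polyunsaturated fatty acids, had 12.1 CPM in the CB library, 5.38 in the S1650b library and 9.82 in the Control library, and was 1.83-fold lower (1.45 to 2.31) with S1650b. ELOVL5, an elongase of polyunsaturated fatty acids, had 132 CPM in the CB library, 86.3 in the S1650b library and 96.8 in the Control library, with an S1650b fold of 0.892 (0.837 to 0.951). SCD (ENSG00000099194, chromosome 10, 100347124 to 100364834) had 5752 CPM in the CB library, 7451 in the S1650b library and 5338 in the Control library. Its S1650b fold of 1.40 (1.38 to 1.41) did not pass the rule with TMM scaling and did with total counts. SCD alone took 0.814% of all counts in the S1650b library and 0.510% in the Control library, and 71.0% and 67.2% of the counts of the arm.

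Of the regulators, SREBF1 was lower with S1650b, and the others were within 1.5-fold of the Control library with both particles. SREBF1 (ENSG00000072310, chromosome 17, 17810399 to 17837002) had 1072 CPM in the CB library, 563 in the S1650b library and 1175 in the Control library. It was 2.09-fold lower (2.04 to 2.13) with S1650b, while its CB fold was 0.912 (0.895 to 0.929). SREBF2 (ENSG00000198911, chromosome 22, 41833079 to 41907308) had 532 CPM in the CB library, 454 in the S1650b library and 587 in the Control library, with folds of 0.906 (0.883 to 0.931) for CB and 0.774 (0.753 to 0.795) for S1650b. SCAP had 79.2 CPM in the CB library, 69.5 in the S1650b library and 84.7 in the Control library, with folds of 0.935 (0.872 to 1.00) for CB and 0.820 (0.765 to 0.879) for S1650b. INSIG1 (ENSG00000186480, chromosome 7, 155297776 to 155310235), itself a known SREBP target, had 268 CPM in the CB library, 278 in the S1650b library and 214 in the Control library, and its folds were 1.25 (1.20 to 1.30) for CB and 1.30 (1.25 to 1.35) for S1650b. Counts per gene do not separate the transcripts of SREBF1 that encode its different protein forms, and cleavage of the precursors is not measured by RNA.

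Set directly against the CB library, the S1650b library was lower for most genes of both arms. The particle and the dose both differ here (50 µg/mL against 25 µg/mL), so their parts cannot be told apart. In the cholesterol arm 4 of 20 genes were called higher and 6 lower, where 26.1% of all genes were called higher and 20.8% lower, and in the fatty acid arm 2 of 12 were higher and 3 lower. The median log2 folds of the arms were −0.30 and −0.39, against 0.01 for all genes (−0.11 and −0.19, against 0.21, with total counts). With total counts, 70.1% of the calls over all genes were higher, against 55.7% with TMM.

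The genes called lower in S1650b than in CB were ACAT2 at 2.43-fold lower (2.23 to 2.65), FDPS at 2.36-fold lower (2.25 to 2.49), PMVK at 2.04-fold lower (1.86 to 2.25), MVK at 1.61-fold, EBP at 1.58-fold and DHCR7 at 1.55-fold in the cholesterol arm. In the fatty acid arm they were FADS2 at 2.24-fold lower (1.80 to 2.82), FASN at 1.57-fold lower (1.55 to 1.59) and ELOVL5 at 1.53-fold. MVK, EBP, DHCR7, FASN and ELOVL5 did not pass with total counts. SREBF1 was 1.90-fold lower (1.86 to 1.95). The genes called higher were SC5D at 2.19-fold higher (2.02 to 2.38), STARD4 at 2.02-fold higher (1.88 to 2.18), GGPS1 at 1.73-fold higher (1.47 to 2.05) and MSMO1 at 1.55-fold higher (1.47 to 1.63) in the cholesterol arm, and GPAM at 2.65-fold higher (2.25 to 3.13) and ACSL3 at 1.71-fold higher (1.65 to 1.78) in the fatty acid arm. MSMO1 lay just inside the rule, and did not pass with upper-quartile scaling, with the deposited FPKM or with edgeR's default TMM reference library. With the trend of all genes with GC content removed, 4 of the 6 no longer passed, STARD4 at a fold of 1.38, GGPS1 at 1.30, MSMO1 at 1.10 and ACSL3 at 1.21, and TM7SF2 was added at 1.73. Of the genes called lower, MVK, EBP, DHCR7 and FASN then did not pass, and ELOVL6 was added at 0.607. Over all genes, 22.5% were then called higher and 19.6% lower. With the trends with exon length and GC content both removed, the genes called higher were the same as with the GC trend alone. FASN then passed as lower at 0.614 (0.606 to 0.623), MVK, EBP and DHCR7 did not, and FADS1 was added at 0.613 beside ELOVL6 at 0.548. Over all genes, 19.2% were then called higher and 21.1% lower. HMGCS1, called higher than Control with each particle, was within 1.5-fold between them at 0.924 (0.889 to 0.961), and so was LPIN1 at 1.44 (1.37 to 1.51).

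The S1650b folds were lower in members with a higher GC content, a relation that was much weaker for the CB folds. Over the 36 genes, Spearman's rho between the log2 fold and the GC content of the longest transcript was −0.76 for S1650b against Control (Pearson's r −0.73) and −0.12 for CB against Control. Over all 14613 genes with a known GC content it was −0.44 for S1650b and −0.11 for CB. These values run across genes of the same 2 libraries, which are not independent replicates. Of the 17 members below the median GC content of all genes (48.6%), 9 were called higher with S1650b and 0 lower, and of the 19 at or above it, 1 (ACACA) was called higher and 3 lower. Over all genes, 2647 of 7306 below the median were higher and 778 lower, and 587 of 7307 at or above it were higher and 2023 lower. The arms had close GC medians, 49.4% for cholesterol and 48.1% for fatty acid synthesis, but differed in exon length. The median exon length was 4302 bases in the cholesterol arm and 8330.5 in the fatty acid arm, against 4584 for all genes. Over all genes, the S1650b folds over Control rose with exon length (Spearman's rho 0.31). The fatty acid median with the length trend removed is given among the alternatives below.

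**Figure D3:**
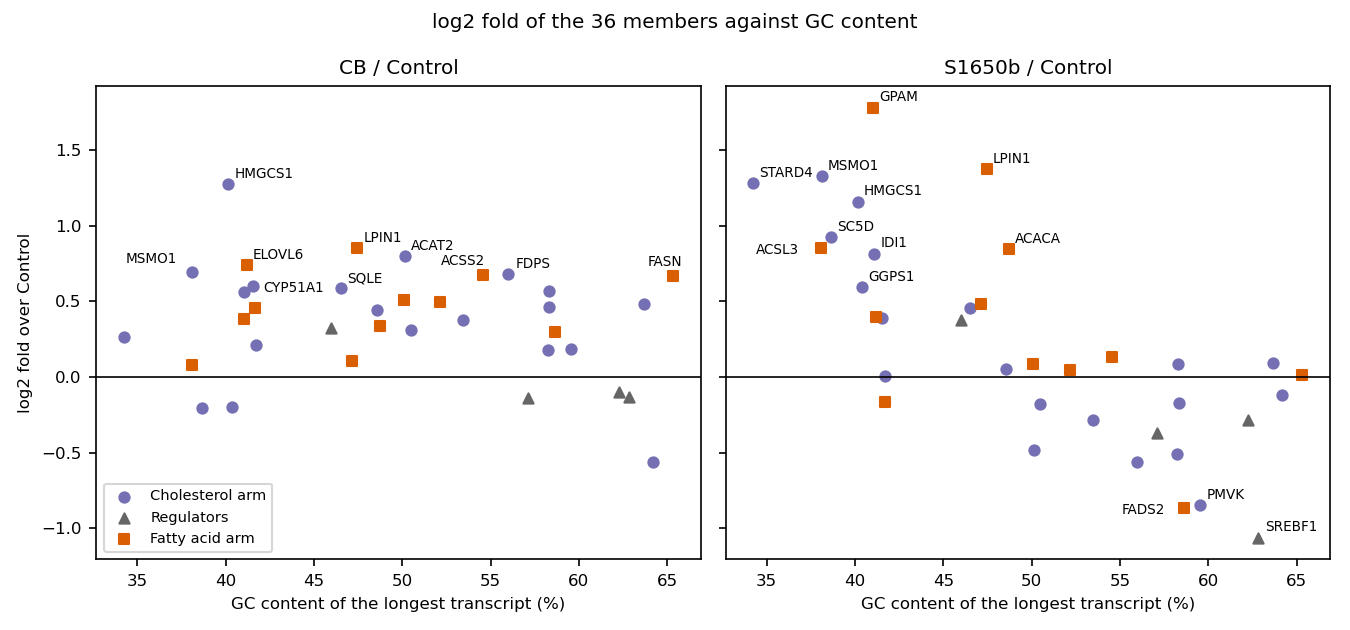
log2 fold over the Control library against the GC content of the longest transcript for the 36 genes, CB on the left and S1650b on the right, with called genes named. With S1650b, the genes called higher lie at a GC content below 50% and those called lower above it (rho −0.76), while the CB folds show no such slope (rho −0.12).

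When the trends of all genes with exon length and GC content were removed by a lowess fit, 5 of the 10 members called higher with S1650b still passed the rule and 5 did not. HMGCS1 then had a fold of 1.66, MSMO1 of 1.997, STARD4 of 1.63, GPAM of 2.13 and LPIN1 of 1.91. IDI1 had a fold of 1.38, SC5D of 1.32, GGPS1 of 1.20, ACACA of 1.36 and ACSL3 of 1.16, each below 1.5. Of the 3 members called lower, SREBF1 at 1.93-fold lower and FADS2 at 1.89-fold lower still passed, and PMVK at 1.29-fold lower did not. FADS2 did not pass with the GC trend alone removed. With CB, 8 of the 10 members called higher still passed, SQLE and CYP51A1 no longer did, and LSS was added. Over all genes, 14.7% were then called higher and 17.2% lower with S1650b, and 5.44% and 9.78% with CB.

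**Figure D4:**
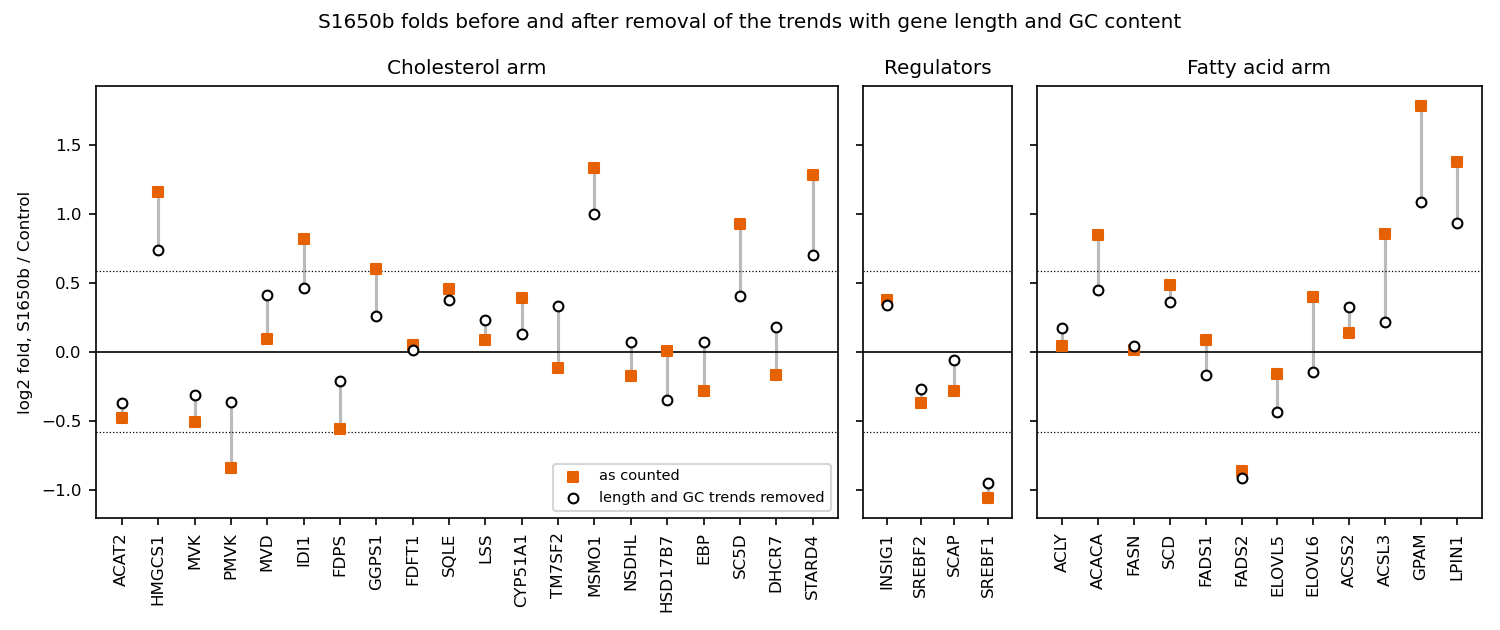
log2 fold of the 36 genes, S1650b against Control, as counted (squares) and with the trends of all genes with exon length and GC content removed (open circles), with dotted lines at 1.5-fold higher and lower. HMGCS1, MSMO1, STARD4, GPAM and LPIN1 lie above the upper line in both forms, and SREBF1 and FADS2 below the lower line.

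For several members, other annotated genes cover part of the exons, and no label or header says whether reads were counted by strand. In ACAT2, 52.3% of the exon length is covered, chiefly by TCP1 on the opposite strand, a chaperonin subunit whose folds were 1.44 with CB and 0.918 with S1650b. In GGPS1, 41.0% is covered, chiefly by ARID4B on the opposite strand, whose folds were 0.913 with CB and 2.81 with S1650b. In CYP51A1, 83.2% is covered, by an antisense gene with 4, 9 and 2 counts in the CB, S1650b and Control libraries and by genes at 0. In FDPS, HMGCS1 and IDI1 the covered shares were 18.6%, 14.95% and 14.8%. How far reads of these neighbours enter the counts was not tested.

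Other genes of SREBP processing numbered 14, for the proteases, retention and degradation factors and the partners NF-Y and Sp1. With CB, 2 of the 14 (14.3%) were called higher and 0 lower, where 4.86% of all genes were higher and 10.5% lower. With S1650b, 1 was higher and 1 lower (7.14% each), where 22.1% and 19.2% of all genes were. The median log2 folds were 0.02 and 0.08. MBTPS2, the protease that makes the final cut of SREBPs, had 224 counts in the CB library, 385 in the S1650b library and 145 in the Control library, and was 1.52-fold higher (1.23 to 1.89) with CB and 2.35-fold higher (1.94 to 2.87) with S1650b. PAQR3, which tethers the SCAP-SREBP complex to the Golgi, was 1.63-fold higher (1.37 to 1.95) with CB. In PAQR3, 45.5% of the exon length is covered by BMP2K, and how far its reads enter the count was not tested. NFYC, a subunit of NF-Y, was 1.53-fold lower (1.41 to 1.65) with S1650b. Of 10 further known SREBP targets, 1 was higher and 0 lower with CB (median 0.18), against the same 4.86% and 10.5% of all genes. With S1650b 2 were higher and 2 lower (20% each, median −0.08), close to the 22.1% and 19.2% of all genes. TMEM97, a sterol-regulated membrane protein, was 1.51-fold higher (1.37 to 1.67) with CB and 2.13-fold lower (1.87 to 2.43) with S1650b. PANK3, a pantothenate kinase of CoA synthesis, was 2.41-fold higher (2.22 to 2.62) with S1650b, and PNPLA3, a lipid droplet lipase, was 2.59-fold lower (1.98 to 3.43). Of the genes named with S1650b, the GC content was 35.9% for MBTPS2 and 37.8% for PANK3. It was 45.8% for TMEM97, 51.3% for NFYC and 54.0% for PNPLA3. Its part in these folds was not tested.

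Of 15 genes of cholesterol uptake, transport and storage, 14 were kept. With CB 1 was higher and 2 lower (7.14% and 14.3%, median 0.12), against 4.86% and 10.5% of all genes. With S1650b 1 was higher and 1 lower (7.14% each, median −0.34), against 22.1% and 19.2%. SCARB1, a receptor for high-density lipoprotein, was 1.79-fold higher (1.66 to 1.94) with CB. LRP1, a large lipoprotein receptor, was 1.56-fold lower (1.51 to 1.62) with CB and 1.62-fold lower (1.57 to 1.68) with S1650b, and GRAMD1C, a sterol transfer protein, was 2.48-fold lower (1.75 to 3.57) with CB. VLDLR was 4.43-fold higher (1.81 to 13.01) with S1650b from 30 counts in the S1650b library against 6 in the Control library, hence its wide interval. It passed the filter of 1 CPM only through the S1650b library (1.34 CPM, against 0.549 in CB and 0.304 in Control). It was the 1 gene of this list called higher with S1650b, so that count depends on the filter. The GC content was 42.7% for VLDLR and 60.1% for LRP1, and its part in these folds was not tested.

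All 8 keratinocyte markers were detected in each library, and they summed to 13333 CPM in the CB library, 6577 in the S1650b library and 14450 in the Control library. With CB, 0 of the 8 were called, where 4.86% of all genes were called higher and 10.5% lower. With S1650b, 4 of the 8 were called lower and 1 higher, where 19.2% and 22.1% of all genes were. The keratins KRT5 at 3.14-fold lower (3.10 to 3.17), KRT14 at 2.89-fold lower (2.85 to 2.93) and KRT6A at 3.87-fold lower (3.64 to 4.10) and the desmosomal gene PKP1 at 1.703-fold lower (1.66 to 1.75) were the 4. DSP, which encodes the desmosomal protein desmoplakin, was 1.80-fold higher (1.74 to 1.87). The S1650b fold was 1.35 (1.32 to 1.38) for KRT17, 1.25 (1.19 to 1.31) for TP63 and 0.744 (0.732 to 0.757) for SFN. Fibroblast markers summed to 30.5, 12.998 and 92.8 CPM, with COL1A2, PDGFRA and PDGFRB at 0 in the Control library. Of the 3 that were kept, DCN and COL3A1 were called lower with both particles, DCN at 7.08-fold lower (5.97 to 8.44) with CB and 29.4-fold lower (21.5 to 41.2) with S1650b, and COL3A1 at 1.91-fold lower (1.67 to 2.19) and 8.68-fold lower (6.90 to 11.05). COL1A1 was called with neither, at 0.870 (0.664 to 1.14) with CB and 1.15 (0.901 to 1.47) with S1650b. Endothelial markers summed to 27.8, 44.2 and 54.6 CPM, carried mainly by CDH5 at 503, 920 and 1013 counts. CLDN5 was at 0 in the S1650b and Control libraries, PECAM1 in the S1650b library and TIE1 in the Control library. CDH5 was 2.04-fold lower (1.835 to 2.28) and VWF 1.51-fold lower (1.01 to 2.28) with CB, and neither was called with S1650b. Adipocyte and sebocyte markers, of cells rich in these pathways, summed to 0.748, 1.88 and 3.95 CPM, with ADIPOQ, CIDEC, LEP, AWAT2 and MC5R at 0 in all 3 libraries. Melanocyte markers summed to 3.39, 2.64 and 5.16 CPM, with TYR, DCT and TYRP1 at 0, and leukocyte markers to 1.25, 1.17 and 1.87 CPM.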

How the data were processed

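Per the labels' protocols, total RNA was extracted with Trizol and sequenced from libraries made with a NEBNext Ultra kit. The deposited count table holds whole-number counts per Ensembl gene, and a second deposited table holds the authors' FPKM, which matched the counts apart from a gene length and 1 factor per library (0.972 for CB and 1.14 for S1650b relative to Control, over 8712 genes). The submitters' processing notes name CASAVA 1.7 and mouse genome builds, which do not match the human identifiers. Not given in the sources used here were the aligner, the counter, the build and any use of strand.

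Counts were scaled by TMM (edgeR 4.0.16, R 4.3.3, Control as the reference library). Genes with at least 1 scaled CPM in at least 1 library were kept (14619). Folds have exact 95% conditional binomial (Clopper-Pearson) intervals. PCR copies are not independent molecules, so these cover counting error only. The 36 genes and all lists were chosen with earlier results of these data known. The steps were tested on simulated data. Exon positions, lengths and GC content came from GENCODE 29 on GRCh38 (GC known for 14613 genes), and 0.5 counts were added before log2. Trends were removed with lowess (span 30%). Values in every library are given for members called in at least 1 comparison and for the regulators, and from each other list at most 3 called members per comparison, ranked by the interval end nearest to 1, are named. The results of 1 further list are not reported here. Alternatives were total counts, DESeq2 1.42.0 median of ratios, upper quartile, the deposited FPKM (0.1 added), an addition of 5 counts, the filter left out or set to 5 CPM, a fold of 2, removal of the length and GC trends, and the regulators placed in the arms. TMM with edgeR's default reference library was added after seeing the data. Python 3.11.15 with scipy 1.17.1 and statsmodels 0.14.6 was used.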

Additional observations from a re-analysis of the deposited data

How the results depend on the processing

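With 1 library per group, no library could be left out. No paired analysis was possible because each group holds 1 library. Among the counts and medians of the arms, 187 alternative values kept their direction and size, while 40 moved and 1 turned its direction. Of the 187, 18 came from leaving out the filter and 18 from setting it to 5 CPM. Every gene of the arms was kept under both settings, so those values could not change and are no check. With total counts, the cholesterol median was 0.26 (S1650b against Control) and −0.11 (S1650b against CB), and the fatty acid median 0.46 and −0.19. Against CB, 3 cholesterol genes were then lower and 4 fatty acid genes higher and 1 lower, where 33.0% of all genes were higher and 14.1% lower. With the upper quartile, the cholesterol median for S1650b against Control turned to −0.056, with 4 genes lower, where 25.3% of all genes were. With FPKM, the cholesterol median for CB was 0.51. At a fold of 2, 1 cholesterol and 0 fatty acid genes were higher with CB, against 1.71% of all genes. S1650b then had 3 cholesterol genes higher and 0 lower, and 2 fatty acid genes higher and 0 lower. Against CB it had 2 cholesterol genes higher and 3 lower, and 1 fatty acid gene in each direction. The shares of all genes were 12.1% higher and 7.86% lower with S1650b, and 15.8% and 9.54% against CB.

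With the length trend removed, S1650b had 2 cholesterol genes lower and a fatty acid median of 0.11. Against CB it had a fatty acid median of −0.52 with 1 gene higher and 5 lower. Of all genes, 19.2% were then higher and 19.2% lower with S1650b, and 22.6% and 22.2% against CB. With the GC trend removed, S1650b had 3 cholesterol genes higher and 0 lower and 0 fatty acid genes lower. Against CB it then had 2 cholesterol genes higher and 3 lower and 1 fatty acid gene higher. Of all 14619 genes, 2478 were then higher and 2498 lower with S1650b, and 3285 and 2871 against CB. With both removed, the cholesterol median for S1650b was 0.20, with 3 genes higher and 0 lower and 2 fatty acid genes higher. Against CB it had 2 cholesterol genes higher and 3 lower and 1 fatty acid gene higher and 5 lower. Of all genes, 14.7% were then higher and 17.2% lower with S1650b, and 19.2% and 21.1% against CB. With regulators in the arms, 2 fatty acid genes were lower with S1650b, since SREBF1 joins that arm, where 19.2% of all genes were lower. With edgeR's default reference library for TMM, 2 cholesterol genes were lower with S1650b, where 21.8% of all genes were. Other causes were not tested. For single members, 849 values kept within the counting interval and 339 moved beyond it, with 0 called folds reversed. Of the 849, 108 came from leaving out the filter and 108 from setting it to 5 CPM. Neither setting could change the fold of a member, so those values are no check. Depth limits FADS2, GPAM, CYP51A1, FADS1, GGPS1 and TM7SF2 most, since they had the fewest counts in the Control library. Variation between cultures is unknown.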

Other observations

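Fatty acid oxidation, the pathway opposite to the fatty acid arm, held 18 kept genes of 20. With CB, 0 of the 18 were called in either direction (median log2 fold −0.09), where 4.86% of all genes were higher and 10.5% lower. With S1650b, 2 were higher and 5 lower (median −0.26), against 22.1% and 19.2% of all genes. ECI1, an isomerase for unsaturated fatty acids, was 2.24-fold lower (2.10 to 2.39), ETFB, a carrier of electrons from the oxidation steps, 2.13-fold lower (1.93 to 2.35), and HADH, a dehydrogenase of the cycle, 1.73-fold lower (1.62 to 1.85). The other lipid enzymes outside the 36 (22 genes of elongation, desaturation and glycerolipid synthesis) had 2 higher and 1 lower with CB (9.09% and 4.55%, against 4.86% and 10.5% of all genes). With S1650b 2 were higher and 2 lower (9.09% each, against 22.1% and 19.2%). ACSL4, an acyl-CoA synthetase for polyunsaturated fatty acids, was 2.83-fold higher (2.61 to 3.07) with S1650b. GPAT3, a glycerol phosphate acyltransferase of the endoplasmic reticulum, was 1.84-fold higher (1.51 to 2.25) with CB. The GC content was 37.4% for ACSL4, 45.1% for HADH, 48.7% for ETFB and 61.4% for ECI1. Its part in the S1650b folds was not tested.

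The enzymes that use the isoprenoids of the mevalonate pathway for ubiquinone, dolichol and protein prenylation numbered 12. With CB 1 was higher and 0 lower (8.33% and 0%, against 4.86% and 10.5% of all genes, median 0.12). With S1650b 2 were higher and 5 lower (16.7% and 41.7%, against 22.1% and 19.2% of all genes, median −0.42). PDSS1, which builds the side chain of ubiquinone, had 430 counts in the CB library, 135 in the S1650b library and 218 in the Control library, and was 1.94-fold higher (1.65 to 2.30) with CB. COQ2, which attaches that chain, was 2.51-fold lower (2.21 to 2.85) with S1650b, and ICMT, which methylates prenylated proteins, was 1.87-fold lower (1.76 to 1.98). The GC content of their transcripts was 44.6% for PDSS1, 48.1% for COQ2 and 49.8% for ICMT. Their exon lengths were 1955, 2774 and 4910 bases, against a median of 4584 for all genes. The part of GC content and exon length in these folds was not tested.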
